A study of Mus musculus with 6 samples.

Results

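Cdx1, Cdx2 and Cdx4 are the 3 mouse members of the caudal family of homeobox transcription factors. The members were taken as every probe set of the array that the platform annotation assigns to 1 of these genes alone, which gave 4 probe sets of 45037, for 3 genes of the 18193 measured: 1 for Cdx1 (1449582_at), 2 for Cdx2 (1422075_at and 1422074_at) and 1 for Cdx4 (1421552_at). Transcripts were measured in the node and primitive streak region, dissected from Wnt3a null embryos and from wild-type embryos between embryonic days 7.75 and 8, with 0 to 2 somites. All embryos were on a mixed C57BL/6 and 129/Sv background. Each genotype had 3 arrays, each array held 1 pool of amplified RNA from 3 embryos of one stage, and the labels number the pools 1 to 3 in both genotypes. The labels do not give which part of Wnt3a the null allele removes or whether a pool held embryos of one litter.

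Caudal proteins pattern the posterior body. In the mouse embryo they are made in the primitive streak and tail bud, where they activate Hox genes of the trunk and sustain growth of the body axis, and Wnt, FGF and retinoic acid signals are known to control their transcription. Cdx2 also acts in the trophoblast and later in the intestine, while Cdx4 lies on the X chromosome near the X-inactivation centre. Wnt3a is a secreted Wnt ligand made in the same posterior tissue, and the study sought genes downstream of it at a stage before the mutants look abnormal. In pooled tissue, fewer cells that make a transcript and less transcript per cell cannot be told apart.

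Cdx1 and Cdx4 had lower signals in all Wnt3a null pools than in any wild-type pool, and so had the bright Cdx2 probe set by a narrower margin. In replicates 1, 2 and 3, the null pool held 41.6%, 43.2% and 40.3% of the wild-type Cdx1 signal. For Cdx4 the shares were 30.5%, 35.4% and 22.6%, and for the bright Cdx2 probe set 72.9%, 82.9% and 55.8%. No member passed the test that compares genotypes without regard to the replicate number. Pairing the pools by number did not by itself change that. Cdx1 and Cdx4 passed, lower in null, where pairing was combined with other variance options of the test.

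Wnt3a itself had signals of 961, 761 and 1009 in null pools 1 to 3, against 864, 1058 and 996 in wild-type pools 1 to 3, a log2 difference of -0.10. Its signal thus did not tell the genotypes apart, and where its probes lie relative to the lesion of the allele is not stated, so the labels could not be checked by it. On the arrays as a whole, median signals lay between 73.7 and 86.4, and log2 signals correlated at 0.903 to 0.915 between arrays of one genotype and at 0.902 to 0.912 between genotypes. Of the 14 fixed markers of node and streak, 12 were measured and 10 of those lay above the median signal of all probe sets. Of the 12, 9 had a lower mean in null, as had 49.2% of all genes, and Wnt3a was counted among the 9. The median log2 difference of the 12 was -0.33. The summed signal of the 12 ran from 15729 to 20000 in null pools and from 19744 to 24086 in wild-type pools. Their part in the Cdx values was not tested. For 2 of the 12 the groups did not overlap with null lower, against 4.56% of all genes. Mixl1, a homeobox gene of the streak, had 620, 406 and 436 in null and 901, 2106 and 633 in wild-type pools, and Nodal, a ligand of the streak and node, had a log2 difference of -1.10. Evx1, a homeobox gene of the posterior streak, had -0.97 and was lower in null in each replicate number. The 3 with a higher mean in null were Foxa2 at 0.32, Eomes at 0.20 and Wnt3 at 2.26, the last with no signal above 41.1. None of the 12 passed either fit. The streak gene Nkx1-2, with the highest signal of the list, ranged from 11376 to 16391 in null pools and from 14974 to 17845 in wild-type pools, while T and Noto were not listed in the annotation used here. The 3' to 5' signal ratio of Gapdh, which reflects RNA integrity, ranged from 2.09 to 2.39 in null pools and from 2.51 to 3.00 in wild-type pools. That of beta-actin overlapped, with 2.38 to 3.83 in null pools against 2.68 to 3.69 in wild-type pools. The part of RNA integrity in the differences below was not tested. Wild-type pool 1 had a signal of 4.31 for the Y-linked gene Eif2s3y, against 1053 to 1788 on the other 5 arrays. Null pool 1 stood apart in Otx2, a gene of the anterior neural plate, with 1367, against 216 and 468 in the other null pools and 60.7 to 129 in wild-type pools.

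Cdx1, a direct transcriptional target of Wnt signalling in the mouse embryo, had signals of 988, 1066 and 1009 in null pools 1 to 3, against 2377, 2468.5 and 2505 in wild-type pools 1 to 3. The 2 genotypes were well apart and pools of one genotype nearly equal. The null mean was 1021 ± 40.0 and the wild-type mean 2450.1 ± 66.0 (SD, n = 3 each). The pooled SD within a genotype was 0.048 on the log2 scale, and 0.498% of the 18088 probe sets with a mean log2 signal above 7 had a smaller one, where the median was 0.25. The log2 difference, null minus wild type, was -1.26 with a standard error of 0.18 and a 95% confidence interval from -1.72 to -0.81. By replicate number the difference was -1.27, -1.21 and -1.31. In the limma fit with genotype alone its adjusted p was 0.344.

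Cdx4, a caudal gene active in the posterior streak and tail bud, had signals of 103, 277 and 299.8 in null pools 1 to 3, against 337, 783 and 1325 in wild-type pools 1 to 3. The groups did not overlap, although null pool 3 came close to wild-type pool 1. The spread among pools of one genotype was wide: the highest pool held 2.91 times the lowest in null and 3.93 times in wild type. The pooled SD within a genotype was 0.93 on the log2 scale, larger than in 99.1% of probe sets with a mean log2 signal above 7. The log2 difference was -1.78 with a standard error of 0.67 and a 95% confidence interval from -3.44 to -0.13. Within replicate numbers the difference was -1.71, -1.50 and -2.14, with an SD of 0.33, so most of the spread of Cdx4 was shared by the pools of one number. The adjusted p in the limma fit with genotype alone was 0.982.

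Cdx2, which marks the posterior streak, the base of the allantois and the trophoblast, was measured by probe sets of very different brightness. The bright one, 1422075_at, had 2193, 2818 and 2607 in null pools 1 to 3, against 3009.7, 3398 and 4669 in wild-type pools 1 to 3. The groups did not overlap, but null pool 2 lay just below wild-type pool 1, and wild-type pool 3 stood above the other two. The log2 difference was -0.52 with a standard error of 0.26, its 95% confidence interval ran from -1.16 to 0.11, and the limma adjusted p with genotype alone was 1.00. Without wild-type replicate 3 the difference was -0.34. The dim probe set, 1422074_at, had 12.7, 56.4 and 25.3 in null pools, against 33.2, 109.5 and 64.5 in wild-type pools. Its groups overlapped, since null pool 2 exceeded wild-type pool 1, and its mean lay below the median signal of all probe sets. Its log2 difference was -1.23 with a standard error of 0.70 (limma adjusted p of 1.00 with genotype alone), -0.71 without null replicate 1 and -0.82 without wild-type replicate 2. Taking the mean of both probe sets gave -0.88 for Cdx2.

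**Figure D1:**
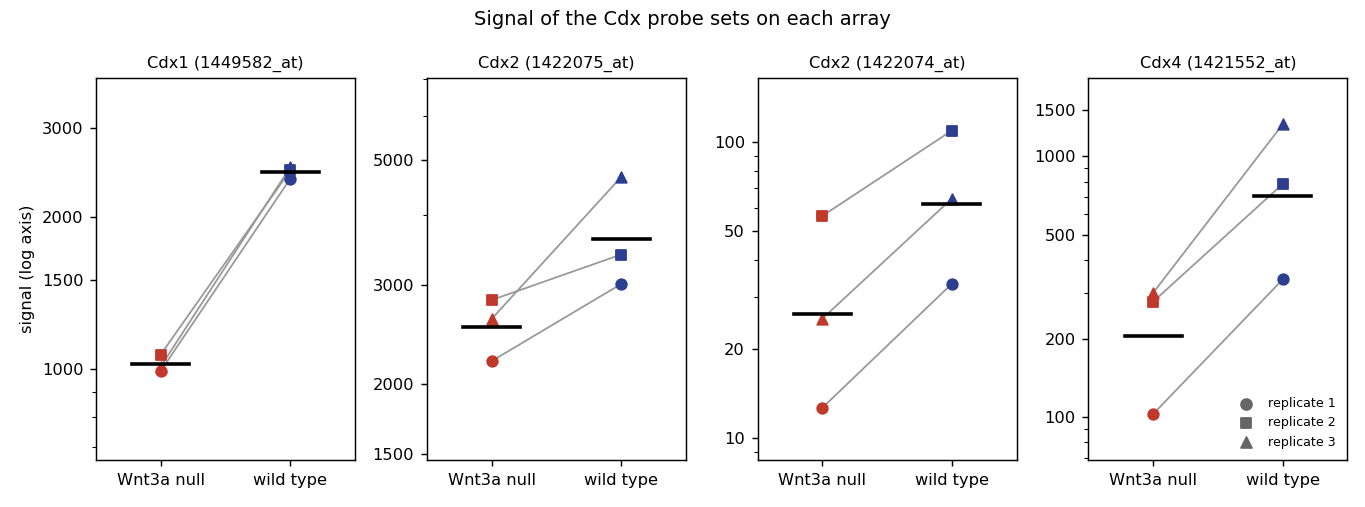
Signal of each Cdx probe set (vertical axis, log scale, a range of its own in each panel) in the 3 Wnt3a null pools and the 3 wild-type pools. Symbols mark replicate numbers, grey lines join pools of one number and black bars are geometric means. Cdx1 lies at 988 to 1066 in null and 2377 to 2505 in wild type, whereas Cdx4 spans 103 to 299.8 in null and 337 to 1325 in wild type, with replicate 1 lowest in both.

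The planned limma fit called 0 of 45037 probe sets, a background of 0%, and 0 of the 4 Cdx probe sets at an adjusted p below 0.05. Without adjustment, 2273 probe sets passed that threshold, 993 of them lower in null, which is 2.2% of all, and 1280 higher. Cdx1 and Cdx4 were among the lower ones, ranking 77 and 1781 by p. Adding only the replicate number as a block also called 0, with 2640 probe sets passing before adjustment and an adjusted p of 0.778 for Cdx1 and Cdx4 (limma). With the block together with limma's trend and robust variance options, here called the paired trend fit, 22 probe sets or 0.0488% were called. Of these, 14 probe sets, 0.0311% of all, were lower in null and 8 were higher. Cdx1 (limma, adjusted p = 0.00349) and Cdx4 (0.00827) were 2 of the 14, ranking 2 and 5 by p among all 45037. The bright Cdx2 probe set had an adjusted p of 0.235 and the dim one 0.680 in that limma fit. This fit was settled on with its results on these data known, so its calls describe these pools and are no independent evidence.

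In that fit the 95% confidence interval ran from -1.51 to -1.02 for Cdx1 and from -2.20 to -1.37 for Cdx4. For the bright Cdx2 probe set it ran from -0.78 to -0.26. Leaving out the pools of any one number in turn, the same fit still called Cdx1 and Cdx4 lower, with adjusted p from 2.37e-04 to 0.0157 for Cdx1 and from 6.22e-04 to 0.0453 for Cdx4 (limma). Without number 1, 2 or 3, these fits called 10, 68 and 10 of 45037 probe sets lower, and 11, 70 and 17 higher. The smallest adjusted p of both genes came without number 2, where the most probe sets were called. All 4 Cdx probe sets were lower in null in each of the 3 replicate numbers, against 13.7% of all probe sets. Null and wild-type values did not overlap, lower in null, for 3 of the 4, against 4.41% of all probe sets.

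**Figure D2:**
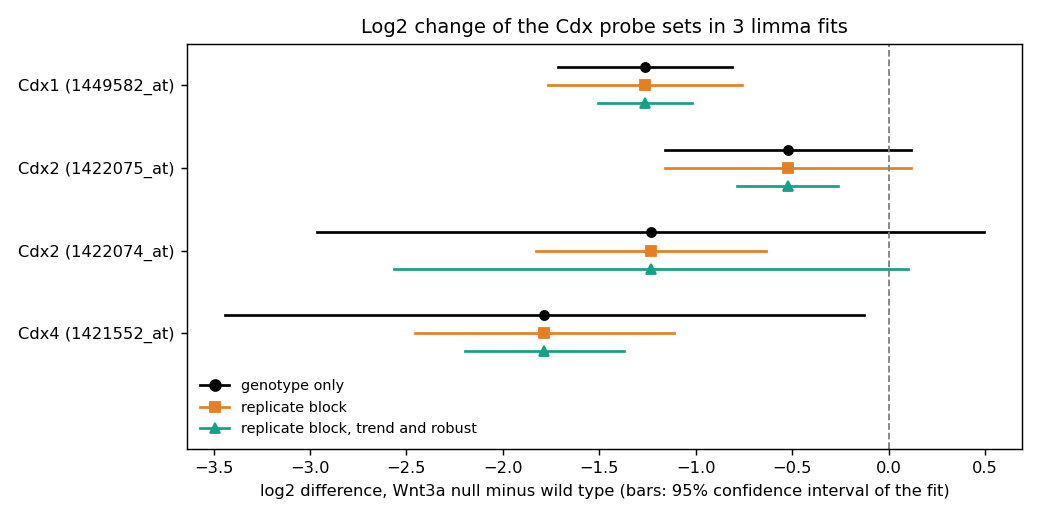
Log2 difference, Wnt3a null minus wild type (horizontal axis), of the 4 Cdx probe sets in 3 limma fits, with the 95% confidence interval of each fit as a bar and 0 as a dashed line. The estimates are the same in the 3 fits and the intervals differ: for Cdx4 the interval is -3.44 to -0.13 with genotype alone and -2.20 to -1.37 in the paired trend fit, drawn as triangles.

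Whether the 3 genes changed unequally was tested on differences between 2 genes within an array, for 3 pairs of genes with bright probe sets. An exact two-sided permutation test of 3 pools against 3 cannot give less than 0.1. The change of Cdx1 minus that of Cdx2 was -0.74 on the log2 scale (exact permutation p = 0.1, 0.3 after Benjamini-Hochberg adjustment over the 3 pairs), with -0.81, -0.94 and -0.47 in replicates 1 to 3. The change of Cdx4 minus that of Cdx2 was -1.26 (exact permutation p = 0.2, adjusted 0.3). By replicate number that value was -1.26, -1.23 and -1.30, with an SD of 0.038. Cdx4 minus Cdx1 was -0.52 (exact permutation p = 0.5, adjusted 0.5), at -0.45, -0.29 and -0.83, and with single pools left out it lay between -1.03, without wild-type pool 1, and -0.05, without null pool 1. It was -0.08 without wild-type pool 3. Each of these differences had one sign in all 3 replicate numbers. With 3 pools a genotype the test cannot reach 0.05, so it shows neither that the genes changed unequally nor that they changed alike.

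Pools numbered 1 had the lowest value of their genotype for all 4 Cdx probe sets, in null as in wild type. Over the whole array this held for 15.8% of probe sets, and for 21% of those with a mean log2 signal above 7. The gap was smallest for Cdx1, whose pool 1 lay 0.05 below the genotype mean in null and 0.04 below it in wild type on the log2 scale. For the bright Cdx2 probe set pool 1 lay 0.20 and 0.27 below, and for Cdx4 0.99 and 1.06 below. Of the 5 allantois markers, Tbx4 and Hand1 also had pool 1 lowest in both genotypes. Tbx2 and Hoxa13 had pool 1 lowest in null alone. In wild type, Tbx2 was highest in pool 1 and Hoxa13 lowest in pool 3. Vcam1 was lowest in null pool 2 and highest, among wild-type pools, in pool 1. Tbx4, a T-box gene picked for its values, had 19.8, 339 and 212 in null pools 1 to 3 and 8.84, 122 and 168 in wild-type pools 1 to 3. The 5 markers summed to 227, 666 and 565 in null and to 296, 368 and 511 in wild-type pools. Their part in the replicate pattern of Cdx2 and Cdx4 was not tested.

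Pools numbered 1 also had the highest signal of Xist, the RNA that coats the inactive X chromosome: 5047, 1871 and 2707 in null and 7440, 2054 and 2408 in wild-type pools 1 to 3. Cdx4 is X-linked, and the part of the pools' sex in its values was not tested. Over the 342 X-linked genes with a mean log2 signal above 7, the median log2 difference was 0.01, and -0.01, 0.01 and 0.01 in replicates 1 to 3. Autosomal genes had a median of -0.01. The X-linked median was -0.01 in replicate 1, although wild-type pool 1 had little of the Y-linked signal of null pool 1. It thus gives no measure of the sex of a pool. The Cdx4 difference in replicates 2 and 3, whose pools all had Y-linked signal, was -1.50 and -2.14, and -1.82 in the fit without replicate 1. Y-linked signal does not give the share of male embryos in a pool, so these pools may still differ in sex.

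**Figure D3:**
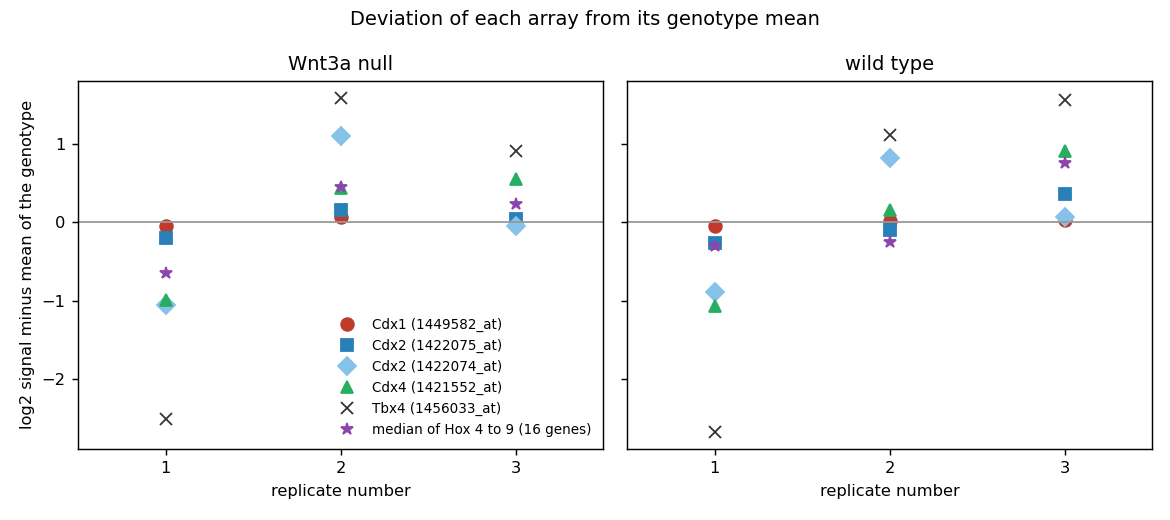
Log2 signal of each array minus the mean of its genotype (vertical axis) by replicate number, for Wnt3a null pools (left) and wild-type pools (right). Points are the 4 Cdx probe sets, the allantois gene Tbx4 and the median over 16 Hox genes of paralog groups 4 to 9. Replicate 1 is below its genotype mean for every plotted series, by 0.05 and 0.04 for Cdx1 and by 0.99 and 1.06 for Cdx4.

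Promoter sequences of Cdx4 and Cdx2 show what these genes share next to their start sites, and that of Cdx1 was not used here. RefSeq start sites of Cdx4 and Cdx2 were matched in build GRCm38.p6, and the 250 bases before each are printed 5' to 3' on the gene's strand. Cdx4 lies at chrX:103321148-103321397 on the plus strand and Cdx2 at chr5:147307250-147307499 on the minus strand. Capitals mark the octamer ATGCAAAT, which is known as a binding motif of POU factors. It was chosen after the sequences were seen, as the core of the longest word both windows hold, AATGCAAAT.
Cdx4: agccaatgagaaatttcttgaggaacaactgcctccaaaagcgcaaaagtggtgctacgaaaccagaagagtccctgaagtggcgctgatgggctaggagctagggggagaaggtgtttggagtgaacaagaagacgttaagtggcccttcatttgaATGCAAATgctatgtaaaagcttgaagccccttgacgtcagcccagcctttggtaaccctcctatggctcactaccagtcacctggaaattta
Cdx2: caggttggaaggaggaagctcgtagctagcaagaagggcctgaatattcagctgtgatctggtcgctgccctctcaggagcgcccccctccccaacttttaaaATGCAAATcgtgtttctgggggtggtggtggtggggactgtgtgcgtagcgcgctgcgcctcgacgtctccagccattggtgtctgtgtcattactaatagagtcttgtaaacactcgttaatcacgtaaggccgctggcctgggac

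The octamer stands 93 to 86 bases before the Cdx4 start site and 147 to 140 bases before that of Cdx2. Searched on both strands, it occurs in 1.60% of the 32851 RefSeq promoter windows of the same length. Since the word was picked because both windows hold it, that percentage does not measure how unusual the sharing is. The core motif of the Wnt effectors TCF and LEF, CTTTGA or CTTTGT, has 0 matches in either window on both strands and occurs in 27.6% of all windows. The caudal motif TTTATG or TTTATA has 0 matches in either as well, against 20.9% of all windows. These counts describe these letters in these windows.

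Among genes of the signals known to feed into Cdx transcription, those that passed a fit, both lower in null, were in the Wnt list. Of 12 measured Wnt ligands, effectors and targets, 0 passed the planned test, where 0% of all genes did, and 2 passed lower in null in the paired trend fit, Axin2 and Sp5 (limma, adjusted p = 0.00827 and 0.0270), against 0.0495% of all 18193 genes. Axin2, a feedback inhibitor, had a log2 difference of -1.05. Sp5, a zinc finger target gene, had 317, 411 and 494 in null and 1750, 941 and 1306 in wild-type pools. Wnt5b had -0.83 and Lef1, a nuclear partner of beta-catenin, -0.65, neither passing. The list's median was -0.10, and that of all genes 0.00. Of the 12, 8 had a lower and 4 a higher mean in null, and Wnt3a itself was counted among the 8. For 5 members the groups did not overlap with null lower, against 4.56% of all genes, and for 2 with null higher, against 5.56%. Those 2 encode nuclear partners of beta-catenin: Tcf7l1 had 1634, 1416 and 1900 in null and 1382, 1166 and 784 in wild-type pools, and Tcf7l2 had a log2 difference of 0.68.

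In the FGF list, the median was 0.04, 4 of 9 measured genes had a lower mean in null and 0 passed either fit. All 4 were lower in each replicate number, and for 2, Fgf4 and Fgf17, the groups did not overlap, against 4.56% of all genes. The streak ligand Fgf4 had 706, 889 and 741 in null and 1258, 1527 and 987 in wild-type pools, without overlap. Fgf17 had a log2 difference of -0.70, Etv4, an FGF-induced transcription factor gene, -0.94, and Fgf8, a streak ligand, -0.31. In the retinoic acid list, 3 of 10 measured genes had a lower mean, the median was 0.16 and 0 passed. The receptor gene Rarb had 231, 453 and 352 in null and 206, 193 and 268 in wild-type pools, and Cyp26a1, which breaks down retinoic acid, had 1608, 889 and 1301 in null and 1004, 959 and 1139 in wild-type pools. The log2 differences of 2 further receptor genes were 0.21 for Rarg and -0.25 for Rxrb.

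Hox genes are the best known targets of caudal proteins. Of 16 measured genes of paralog groups 4 to 9, 14 had a lower mean in null, with a median log2 difference of -0.54, where 49.2% of all genes had a lower mean. Of groups 1 to 3, 5 of 7 had a lower mean, with a median of -0.42. Of the 10 measured genes of groups 10 to 13, 5 had a lower and 5 a higher mean in null, with a median of 0.06. In none of these lists did a gene pass either fit, and whether the groups of paralogs differ was not tested. Non-overlapping lower values were found for 5 of the 16 trunk genes and 1 of the 7 anterior genes, against 4.56% of all genes. Of the 16 trunk genes, 7 were lower in null in each replicate number, against 13.7% of all probe sets. In 10 of the 16 the mean lay above the median signal of all probe sets. Hoxa4, Hoxa7 and Hoxc9, which are among the 5 without overlap, had means below it. Non-overlapping higher values were found for 2 of the 10 posterior genes, Hoxa10 and Hoxc13, against 5.56% of all genes.

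Hoxb4, an anterior trunk gene, had 157, 391 and 255 in null and 675, 546 and 769 in wild-type pools. Hoxb5 had 43.1, 198 and 226 in null and 390.1, 231 and 537 in wild-type pools, where null pool 3 and wild-type pool 2 nearly met. Hoxa4 had a log2 difference of -1.60 and Hoxc9 of -0.86, both at signals below 70. Hoxa9, 1 of the 2 trunk genes with a higher mean in null, had 835, 368 and 590 in null and 141, 146 and 1118 in wild-type pools, or 0.99. In the anterior group Hoxb3 had 174, 546 and 504 in null and 549, 606 and 1518 in wild-type pools, while Hoxa3 stood at -0.55, Hoxd1 at -0.66 and Hoxb2 at -0.42. In the posterior group Hoxa10 had higher signals in null, with 889, 151 and 151 in null and 76.9, 69.6 and 75.4 in wild-type pools. Hoxa11 had 588, 165 and 143 in null and 97.0, 118 and 193 in wild-type pools, Hoxc13 had a difference of 1.91 with no signal above 33.6, and Hoxa13 had -0.85.

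Wild-type pool 3, which had the highest Cdx4 and bright Cdx2 signals, also had the highest wild-type value for 12 of the 16 trunk Hox genes, as it had for 31.6% of all genes. The summed signal of these 16 genes was 2209, 3176 and 3625 in null pools and 3076, 2921 and 7606 in wild-type pools 1 to 3. Without wild-type replicate 3 the Cdx4 difference was -1.33 and the Cdx1 difference -1.25. Without null replicate 1, the pool with high Otx2 and Hoxa10, they were -1.29 and -1.24.

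Other genes described downstream of Cdx proteins in mouse embryos did not share 1 direction. Of 7 measured, 5 had a lower mean in null, against 49.2% of all genes, with a median of -0.10. The 5 include Wnt3a itself, the gene mutated in these embryos, at -0.10. The paired trend fit called 1 of the 7 lower, Dll1, against 0.0495% of all genes. This Notch ligand gene of presomitic mesoderm had 2554, 3416 and 2602 in null and 4598, 5321 and 3842 in wild-type pools (limma, adjusted p = 0.0460 in that fit and 0.972 with genotype alone). Fgf8 and Cyp26a1 are given above, and Tal1, a regulator of blood formation, had a log2 difference of 0.23. The other ParaHox genes Gsx1, Gsx2 and Pdx1 had signals of at most 59.3 on every array. Of 9 intestinal genes described as Cdx targets in the mouse, 4 had a lower mean, with a median of 0.18, 7 had a mean below the median signal of all probe sets and 0 passed; those with the smallest p were Guca2a at 1.79, Lct at 1.62, Muc2 at 1.52 and Vil1, a brush border protein gene, at 0.46.

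**Figure D4:**
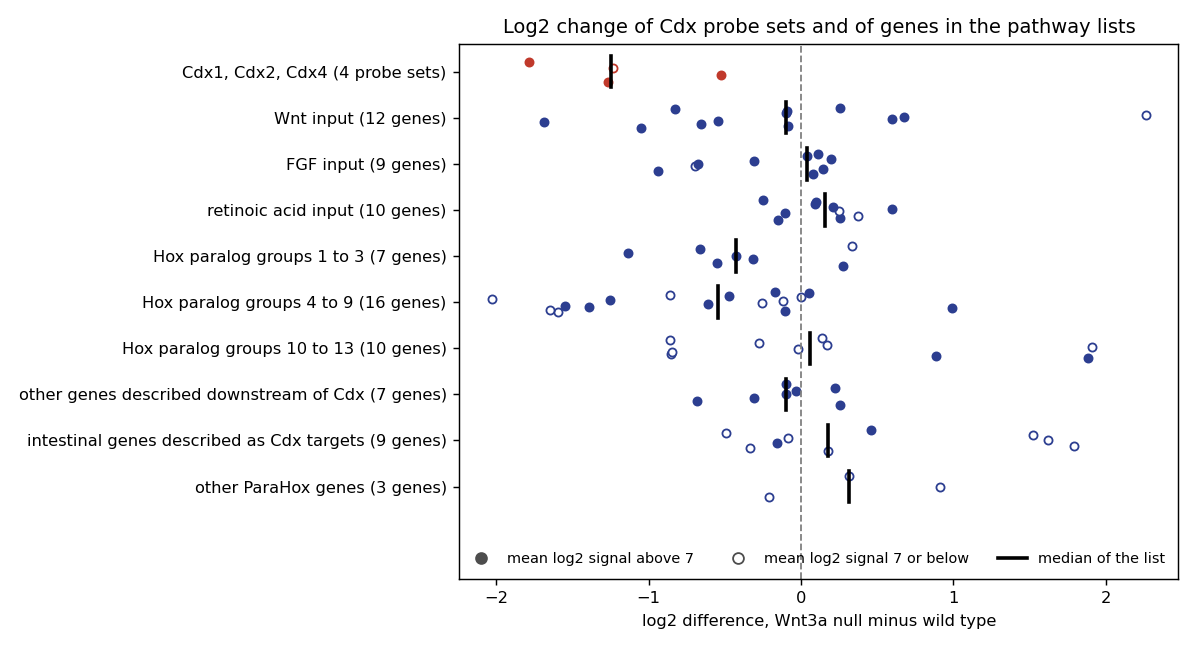
Log2 difference, Wnt3a null minus wild type (horizontal axis), of the 4 Cdx probe sets (top row) and of each measured gene in the pathway lists. Filled points have a mean log2 signal above 7, open points 7 or below, and black bars are list medians. The Cdx probe sets lie between -1.78 and -0.52, and the medians of the other lists between -0.54 for Hox paralog groups 4 to 9 and 0.31 for the other ParaHox genes.

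Markers of other tissues were examined beside the Cdx values, among them trophoblast, which makes Cdx2. Of 9 measured trophoblast and chorion markers, 9 had a higher mean in null and 0 passed, with a median log2 difference of 0.57. Their summed signal, mostly Krt8 and Krt18, ran from 16867 to 18927 in null pools and from 14524 to 17198 in wild-type pools. Elf5, a defining trophoblast gene, had 115, 118 and 72.5 in null and 10.4, 24.3 and 73.1 in wild-type pools. The values of Elf5 in null pool 3 and wild-type pool 3 were nearly equal. Gata3 had 171, 70.4 and 65.2 in null and 46.9, 105 and 110.7 in wild-type pools, with null higher in replicate 1 alone. Of 7 heart markers 5 had a higher mean in null. The sum of the 7 ran from 2419 to 3146 in null pools and from 1167 to 1605 in wild-type pools. Tbx20 and Isl1 had the highest means of the list, 1337 and 816 in null against 644 and 483 in wild type. Nkx2-5 and Myl4 had a lower mean in null, with log2 differences of -0.43 and -0.41. Only 3 of the 7 had a mean above the median signal of all probe sets. Of 8 anterior neural markers 5 had a higher mean, with a sum from 519 to 1834 in null pools and from 258 to 432 in wild-type pools. Otx2 alone held 1367, 216 and 468 of the sums in null pools 1 to 3, and 129, 87.6 and 60.7 in wild-type pools. Only 2 of the 8 had a mean above the median signal of all probe sets. Tbx20 of the heart list and Otx2 of the neural list passed higher in the paired trend fit (limma, adjusted p = 0.0313 and 0.0373), which called 3 of 18193 genes or 0.0165% higher. The part of tissue makeup in the Cdx values was not tested. Visceral endoderm markers overlapped, with sums from 41217 to 59073 in null pools and from 34871 to 84602 in wild-type pools. Primitive blood markers summed to between 320.2 and 687 in null pools and between 242 and 448 in wild-type pools.

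The genes whose signal followed each Cdx gene most closely over the 6 arrays were sought among 5637 probe sets of single genes with a mean log2 signal above 7 and an SD of at least 0.3. With so few arrays in 2 genotypes, high correlations are common, and the values are descriptions. For Cdx1 they were Shmt1, a gene of folate metabolism (Pearson r = 0.992), Axin2 (0.989), Zfp24 (0.981) and Tbx6, a T-box gene of presomitic mesoderm (0.981). For Cdx2 they were Rtn4 (0.981), Ifitm1 (0.965), Cdc42bpa (0.964) and Creg1 (0.963). For Cdx4 they were Smc6 (0.980), Wnt5a (0.978), Col9a1 (0.977) and Lad1 (0.972). Cdx4 and Cdx2 followed each other at 0.963, and Cdx1 followed Cdx2 and Cdx4 at 0.799 and 0.792.

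Tbx6 had 704, 652 and 612 in null and 1107, 1120.2 and 1069 in wild-type pools, a nearly flat level within each genotype like that of Cdx1. Lad1 had 393, 528 and 639.9 in null and 691, 866 and 965 in wild-type pools, with the order of replicates seen in Cdx4. Several of these matches rest on 1 of a gene's probe sets. The Wnt5a probe set like Cdx4 had -0.75 as its log2 difference, with 94.7 to 236 as its range of signals, while the brightest Wnt5a probe set had -0.09. The brightest Rtn4 probe set had 0.10 and the brightest Zfp24 probe set 0.20. Of 4 Shmt1 probe sets 2 had differences of -2.06 and -1.20 and 2 of 0.25 and -0.07, the last being the brightest. The other Axin2 probe set, with signals from 40.5 to 94.2, had 0.26.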

How the data were processed

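The deposited table holds 1 linear intensity per probe set for each of 6 Affymetrix mouse whole-genome arrays. Per the submitters' processing notes the authors used RMA, with no version given, but the deposited intensities are linear and every array has a mean of 500.0 after trimming 2% at each end, which RMA output would not have. How the table was made is otherwise not stated. Per the labels' protocols, 30 to 50 ng of RNA per embryo was amplified, and 600 ng from 3 embryos was pooled per array.

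Signals were turned to log2 without a floor or further background correction, so dim probe sets vary widely. The 64 control probe sets were left out. The genotypes were compared with limma 3.58.1 (lmFit, eBayes; R 4.3.3), two-sided, over all 45037 probe sets with Benjamini-Hochberg adjustment and a threshold of 0.05. Lists use each gene's probe set of highest mean log2 signal. The p-values rest on the spread between pools, and the number of arrays limits the precision. In limma each probe set's variance is drawn toward a value estimated from all probe sets. The standard errors of Cdx1 are therefore wider than its own spread alone would give. In fits with the block, the spread between replicate numbers is taken out.

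Deviations from genotype means correlated at 0.422, 0.454 and 0.282 within numbers 1, 2 and 3 among 18088 probe sets whose mean log2 exceeded 7, so the numbers were treated as pairs (bound 0.1). Over all probe sets the values were 0.0537, 0.0524 and 0.0338, below that bound. What pools of one number share is not stated in the labels.

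Members, lists, fits and alternatives were chosen with earlier results of these data known. Genes named are the Cdx genes, up to 4 genes of each pathway list with the smallest p, the 4 genes most like each Cdx gene and the 3 nearest measured genes on each side. Nkx1-2, Mixl1, Nodal, Evx1, Otx2, Eif2s3y, Xist, Tbx4, the other allantois markers, Tcf7l1, Tcf7l2, Hoxa7, Elf5, Gata3, Krt8, Krt18 and Tbx20 were named after their values were seen. Alternatives were the block, trend and robust options, array weights, log2(signal + 50), median centring, quantile and cyclic loess normalization, a filter at the median, 1 value per gene and leaving out arrays.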

Additional observations from a re-analysis of the deposited data

How the results depend on the processing

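All 4 Cdx probe sets kept a lower mean in null under every alternative in which they were tested. The filter at the median signal removed the dim Cdx2 probe set, and 1 value per gene at its highest probe set left it out too. The planned fit called 0 Cdx probe sets. It stayed at 0 with the replicate block alone, trend and robust options alone (Cdx1 adjusted p = 0.0501, limma), log2(signal + 50), each normalization, the filter, array weights, 1 value per gene, without any single pool, and with the block but without both pools of any one number. With log2(signal + 50) and the block, added after seeing the data, it was 0 too. With the block, trend and robust together, 2 were called, Cdx1 (-1.26) and Cdx4 (-1.78). That count was also 2 in fits added after seeing the data: quantile normalization with those options (-1.26 and -1.84), 1 probe set per gene with them (-1.26 and -1.78, adjusted p = 0.00326 and 0.00656, limma), and without both pools of number 1 (-1.26 and -1.82), 2 (-1.29 and -1.93) or 3 (-1.24 and -1.61). With those options, the lower calls were 12 of 45037 probe sets after quantile normalization and 9 of 18193 with 1 probe set per gene. For each change of the Cdx count the cause was not tested.

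Without single pools, the difference ranged from -1.29 to -1.24 for Cdx1, -0.66 to -0.34 for the bright Cdx2 probe set, -1.78 to -0.71 for the dim one and -2.32 to -1.29 for Cdx4, each uncalled. Cdx1 minus Cdx2 ranged from -0.91 to -0.63, Cdx4 minus Cdx2 from -1.66 to -0.87 and Cdx4 minus Cdx1 from -1.03 to -0.05. For the dim Cdx2 probe set log2(signal + 50) gave -0.53. Dim probe sets have no detection call in the deposited table, which limits what the second Cdx2 probe set can show.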

Other observations

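The 3 nearest measured genes on each side of each Cdx gene, in RefSeq order along its chromosome, gave 18 genes, and 0 passed the planned fit or the paired trend fit. Beside Cdx1, the receptor gene Pdgfrb had 509, 689.7 and 678 in null and 778, 787 and 864 in wild-type pools, or -0.38, while Csf1r, a receptor of macrophages, had 0.89. Arsi and Hmgxb3 had -0.10 and -0.05, and Camk2a and Slc6a7, at lower signals, 0.82 and -0.22.

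Beside Cdx2, Pan3, a gene of mRNA deadenylation, had 1075, 1372 and 1239 in null and 1009, 861 and 839 in wild-type pools, or 0.44. Flt1, a VEGF receptor gene, had -0.13. Gsx1, Plut, Pdx1 and Flt3 had signals of at most 69.3 on all arrays.

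Beside Cdx4, Chic1 had 238, 266 and 297 in null and 341, 312 and 455 in wild-type pools, or -0.46, and Nap1l2, a nucleosome assembly gene, had 431, 383 and 342 in null and 302, 256 and 242 in wild-type pools, a difference of 0.53. Neither gene's groups overlapped, and they lay on opposite sides. Pdgfrb beside Cdx1, lower in null, and Pan3 and Flt3 beside Cdx2, higher in null, did not overlap either. Of all genes, 4.56% did not overlap with null lower and 5.56% with null higher. The other 4 neighbours of Cdx4, Gm5126, 4930519F16Rik, Tsx and Tsix, had signals of at most 73.7 on all arrays.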
